A study of Homo sapiens with 8 samples.

Results

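Immediate-early genes are transcribed within a short time of a growth or stress signal, without the need for new protein, and their mRNAs are degraded quickly. In the cytoplasm such mRNAs are typically deadenylated, often through proteins bound to AU-rich elements of the 3′ UTR, then decapped and digested from the 5′ end by XRN1. The 10 genes described here were chosen by name: the AP-1 subunits JUN, JUNB, JUND and FOS, the transcription factors MYC and EGR1, the immediate early response genes IER2 and IER5, and the growth arrest and DNA damage genes GADD45A and GADD45B. Of these 10 genes, 8 were among the 10105 genes of the count table, and FOS and EGR1 were not analysed here.

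RNA-Seq, which measures mRNA abundance, and Ribo-Seq, which sequences ribosome-protected fragments (RPF), were performed on WT HEK293T cells, a human embryonic kidney cell line, and on an XRN1-null HEK293T line in which a CRISPR/Cas9-induced deletion shifted the reading frame of XRN1. Both lines were harvested untreated, 24 h after plating, and each genotype had 2 biological replicates per assay, giving 8 libraries. Whether the null line came from more than 1 clone is not stated, so the loss of XRN1 and differences between the lines cannot be told apart. The RNA-Seq libraries held 33757487 to 38145433 counts and the Ribo-Seq libraries 1921641 to 4399542. Values are CPM, counts scaled to the library size with TMM factors within each assay, and therefore give a share of the RNA. In such bulk samples fewer cells with an mRNA and less of it per cell cannot be told apart. XRN1 mRNA was 33.5 and 33.0 CPM in the WT and 282 and 253 CPM in the XRN1-null libraries, whereas XRN1 footprints were 34.4 and 49.8 CPM in WT and 22.6 and 18.4 CPM in XRN1-null cells. The mRNA was thus higher in the libraries labelled XRN1-null (log2 fold change 3.01, edgeR FDR = 1.92e-06), the fall of the footprints missed the threshold (−1.08, edgeR FDR = 0.00641), and the footprints per mRNA fell by 4.09 on the log2 scale (edgeR FDR = 1.66e-06). The neuronal-lineage genes NEFL, NEFM and INA, for which HEK293 cells are known, lay between 46.0 and 166 CPM in all RNA-Seq libraries. PAX2, the other HEK293 lineage marker listed, was not analysed here, nor were 10 of the 11 markers of other cell types. The markers in the table also moved with genotype, as NEFM and INA were called lower (log2 fold changes −0.59 and −0.46) and the collagen gene COL1A1 higher, from 13.9 and 15.4 CPM to 36.8 and 37.3 CPM (log2 fold change 1.34), and their part in the results was not tested.

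The genes of this group have few exons. According to GENCODE release 44 mapped to GRCh37 (hg19 coordinates), the reference transcripts of JUN (chr1:59242517-59249720), JUNB (chr19:12902300-12904129), JUND (chr19:18390504-18392432) and IER5 (chr1:181057836-181062036) each have a single exon, IER2 (chr19:13261225-13265725) has 2, MYC has 3, and GADD45A (chr1:68150884-68154017) and GADD45B (chr19:2476120-2478257) have 4 each, against a median of 9 exons over the 9773 genes of the table with a coding reference transcript. Their 3′ UTRs were searched on the sense strand for AUUUA, the core of AU-rich elements, for its extension UAUUUAU and for the nonamer UUAUUUAUU. The longer motifs contain the shorter ones. AUUUA was found in 6 of the 8 genes, against 73.9% of all genes, and UAUUUAU in 5 of 8, against 35.7%. The nonamer was found in IER5 alone, against 9.20% of all genes. None of the 3 motifs was found in the whole 3′ UTR of IER2 (1053 bases) or GADD45B (656 bases). For each of 5 genes, 30 bases of the 3′ UTR with the most AUUUA motifs are shown, with AUUUA in capitals, so that single motifs can be compared with the run in IER5. Apart from IER5 each window holds 1 motif, and where a 3′ UTR has several, as in JUN and GADD45A, other windows hold as many. MYC, which held AUUUA 6 times, is described by its count only.
JUN, chr1:59247007-59247036, minus strand: uccagaaaggauAUUUAagaaaauacaaua
JUNB, chr19:12903874-12903903, plus strand: auauauuuguguAUUUAacagggaggggaa
JUND, chr19:18390807-18390836, minus strand: cgauucugcccuAUUUAuguuucuacucgg
IER5, chr1:181061585-181061614, plus strand: uccuuuAUUUAUUUAUUUAUUUAauuauaa
GADD45A, chr1:68153724-68153753, plus strand: aacuauguauuaAUUUAgaaugguugaguu
The IER5 window with its 4 overlapping AUUUA motifs stood apart from the windows with 1 motif. It begins 2563 bases after the stop codon, whereas the width deposited for IER5, 2342 bases, leaves 1155 bases of 3′ UTR, so that reads over this element may not have been counted. Within the deposited width IER5 held AUUUA once and MYC 4 times. Over the whole table, 18.7% of the 3331 genes with 5 or more AUUUA motifs were called lower in mRNA in XRN1-null cells and 25.2% higher. Of the 2555 genes without one 28.6% were lower and 19.7% higher, called as described for the group in the next paragraph. The 2 classes also differed in median coding length (1521 and 1170 nt) and median GC content (41.0% and 57.3%). The part of these differences was not tested.

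No mRNA of the group was significantly higher in the absence of XRN1. Of the 8 mRNAs, 4 were significantly lower in XRN1-null cells (JUND, IER5, MYC and GADD45A) and none was higher, while 23.2% of all genes tested were lower and 22.9% were higher (edgeR's quasi-likelihood test, Benjamini-Hochberg adjustment over all genes, FDR below 0.005). At an unadjusted p below 0.05, 6 mRNAs differed, all with lower values in XRN1-null cells, as did 7066 of the 10105 genes in either direction, so this count is near the background. DESeq2 called 4 of the 8 as lower and none as higher (2443 lower and 2691 higher among 10094 genes), and edgeR's likelihood ratio test called 5 and none (2964 lower and 2921 higher among all genes). The median log2 fold change of the 8 mRNAs was −0.40, compared with −0.01 over all genes. The CPM of 6 mRNAs were lower in both XRN1-null libraries than in both WT libraries, as were those of 43.7% of all genes, and none was higher in both, against 41% of all genes. Without XRN1-null RNA-Seq replicate 1, only JUND was still called (1 mRNA in place of 4), and with RNA-Seq thinned to the depth of Ribo-Seq 2 were called. The lower calls among all genes, 2344 in the full data, also fell in number, to 1113 and 1538.

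**Figure D1:**
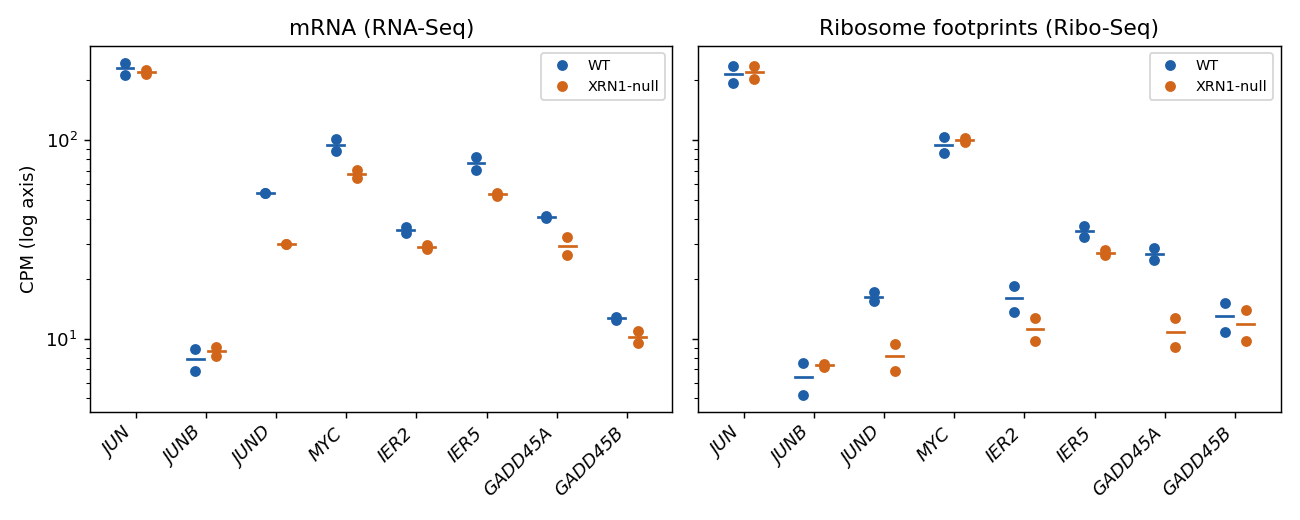
CPM of the 8 mRNAs (left) and of their ribosome footprints (right) on log axes. Each point is 1 library, blue for WT and orange for XRN1-null, and each line is the mean of 2 libraries; both XRN1-null libraries lay below both WT libraries for JUND, IER2, IER5 and GADD45A in both panels and for MYC and GADD45B in the left panel alone.

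Among the ribosome footprints, GADD45A alone passed the threshold, with fewer RPF in XRN1-null cells, and none was higher, against 1.14% of all genes lower and 0.633% higher. The unadjusted p was below 0.05 for 3 members, namely GADD45A, JUND and IER2, and for 3336 of the 10105 genes, a share close to that of the members. The median log2 fold change of RPF was −0.19 for the group and 0.00 for all genes. The RPF of 4 genes (JUND, IER2, IER5 and GADD45A) were lower in both XRN1-null libraries than in both WT libraries, compared with 32.3% of all genes, and none was higher in both, against 32.1%. The call of GADD45A, at a log2 fold change of −1.30, was lost in DESeq2, which called 0 members (−1.29, DESeq2 FDR = 0.00799), with a minimum of 10 counts per library (−1.30, edgeR FDR = 0.00505) and without XRN1-null Ribo-Seq replicate 2 (−1.10, edgeR FDR = 0.00936). For the translational efficiency (TE), the ratio of RPF to mRNA tested as an assay-by-genotype interaction, no member passed the threshold in edgeR's quasi-likelihood test, in its likelihood ratio test or in DESeq2. Of all genes 1.78% fell and 0.0495% rose in TE, and 2 of the 8 members, MYC and GADD45A, had an unadjusted p below 0.05, as did 2356 of all genes. The log2 TE changes of the other members were 0.07 for JUN, −0.03 for JUNB, −0.09 for JUND, −0.29 for IER2, 0.19 for IER5 and 0.29 for GADD45B, all with intervals that included 0.

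**Figure D2:**
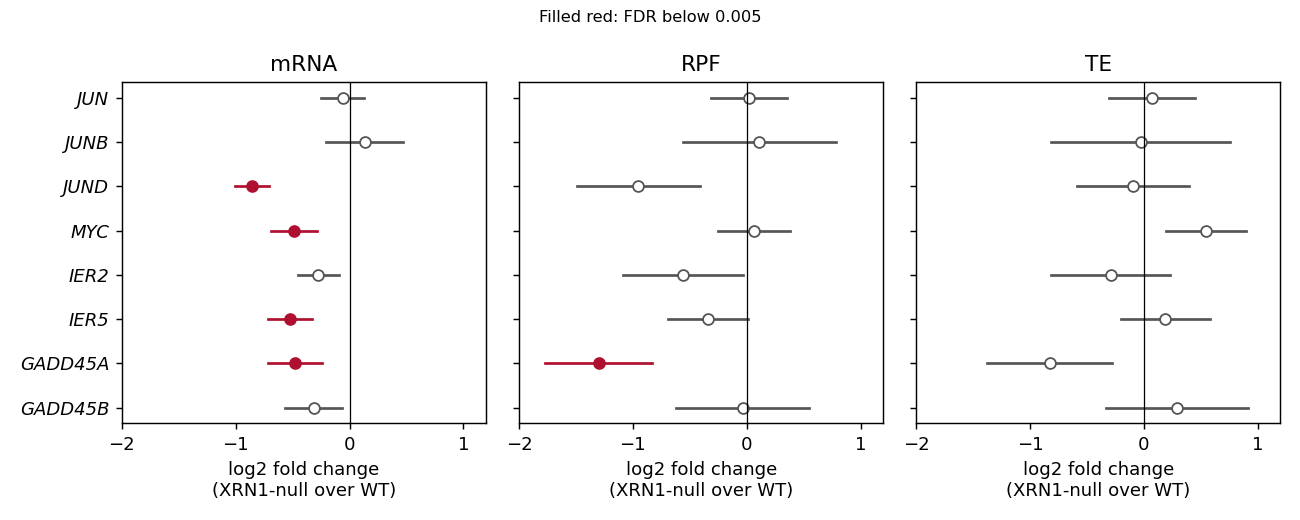
Log2 fold change, XRN1-null over WT, of mRNA, RPF and TE for the 8 genes, with bars for the 95% confidence interval of the quasi-likelihood fit (n = 2 per group and assay). Filled red points passed an FDR of 0.005, which were JUND, MYC, IER5 and GADD45A in mRNA and GADD45A in RPF.

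JUN, JUNB and JUND are bZIP proteins that bind DNA as AP-1, as homodimers or as heterodimers with FOS or ATF proteins. They share an intronless structure. JUND was called lower in mRNA and JUN and JUNB were not called, and differences among the 3 genes were not tested. JUN mRNA was 212 and 245 CPM in the WT libraries and 213 and 225 CPM in the XRN1-null libraries, which overlapped. Its log2 fold change of −0.06 (95% confidence interval −0.25 to 0.13) did not pass the test (edgeR FDR = 0.532). JUN footprints were 193 and 236 CPM in WT and 202 and 236 CPM in XRN1-null cells, a log2 fold change of 0.02 (−0.31 to 0.35). The genotypes overlapped in both assays, and the intervals leave room for modest changes in either direction. JUNB mRNA, the lowest of the group, was 6.89 and 8.89 CPM in WT and 8.19 and 9.07 CPM in XRN1-null cells, and its footprints were 5.21 and 7.58 against 7.20 and 7.49 CPM. The groups overlapped in both assays, with log2 fold changes of 0.13 (−0.21 to 0.47) in mRNA and 0.11 (−0.56 to 0.78) in RPF. JUNB rests on 10 to 33 footprint counts per library, and 259 bases of it overlap an exon of HOOK2 on the opposite strand, whose mRNA rose by a log2 value of 0.53 (edgeR FDR = 0.00197). No strand-specific counting is described, so reads of this stretch cannot be told apart.

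JUND, the JUN protein usually present in resting cells, showed the largest mRNA decrease of the group. Its mRNA fell from 53.9 and 54.0 CPM in the WT libraries to 29.9 and 29.8 CPM in the XRN1-null libraries, with a difference between replicates far smaller than that between genotypes. The log2 fold change was −0.85 (standard error, SE, 0.0638, edgeR quasi-likelihood FDR = 3.31e-05), which placed JUND at percentile 3.10 of all genes. Omitting any single library gave −0.85 to −0.84. JUND footprints were 17.2 and 15.4 CPM in WT and 9.44 and 6.87 CPM in XRN1-null cells, and these groups did not overlap either. The likelihood ratio test and the replicate number as a block called 596 and 665 of all genes lower in RPF, against 115 without them. Higher calls were 469 and 616, against 64. The JUND RPF change of −0.95 (SE 0.249) missed the threshold (edgeR FDR = 0.0259), but passed in the likelihood ratio test (edgeR FDR = 0.00251) and with this block (edgeR FDR = 0.00164). It missed an FDR of 0.05 in DESeq2 (DESeq2 FDR = 0.134) and without XRN1-null Ribo-Seq replicate 2 (log2 fold change −0.77, edgeR FDR = 0.157). The TE of JUND had a log2 change of −0.09 (−0.59 to 0.40). JUND also had the highest GC content of the group, 69.9%, at percentile 99.7 of all reference transcripts, and its part in the result was not tested.

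The make-up of the JUN family can be compared per length. Using CPM per kilobase of deposited width, JUND supplied 28.8% and 25.9% of the summed mRNA of JUN, JUNB and JUND in WT cells, compared with 18.1% and 17.3% in XRN1-null cells. JUN supplied 67.2% and 69.4% in WT against 76.5% and 77.0% in XRN1-null cells. Using footprint CPM per kilobase of coding sequence, the JUND share was 7.64% and 5.69% in WT against 4.14% and 2.63% in XRN1-null cells, and JUN supplied 90.0% to 94.5% in all 4 libraries. The share of JUND was lower in both XRN1-null libraries in each assay, and no test was made of these shares.

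MYC, the bHLH-leucine zipper factor that binds E-boxes together with MAX, was lower in mRNA, while its footprints overlapped between genotypes. The gene lies at chr8:128747680-128755197. Its mRNA was 87.8 and 101 CPM in the WT libraries and 64.0 and 70.4 CPM in the XRN1-null libraries, which did not overlap. The log2 fold change was −0.49 (SE 0.0869, edgeR quasi-likelihood FDR = 0.0018), and the call was lost without XRN1-null RNA-Seq replicate 1 (log2 fold change −0.42, edgeR FDR = 0.0194) and with thinned RNA-Seq (−0.29, edgeR FDR = 0.0415). MYC footprints were 85.4 and 104 CPM in WT and 97.6 and 103 CPM in XRN1-null cells. These overlapped, with a log2 fold change of 0.06 (−0.25 to 0.38). The TE of MYC had a log2 change of 0.54 (0.19 to 0.89), at percentile 97.0 of all genes, and missed the threshold (edgeR FDR = 0.0622). Its log2 TE change lay between 0.43 and 0.73 with each library left out and was 0.34 with thinned RNA-Seq (edgeR FDR = 0.345). The FDR was lower in the likelihood ratio test (edgeR FDR = 0.0160), with the replicate block (edgeR FDR = 0.0271) and with the culture replicate block, which pairs the RNA-Seq and Ribo-Seq libraries of a number (log2 change 0.57, edgeR FDR = 0.00529), and none of these passed 0.005. MYC overlaps an exon of the non-coding gene CASC11 on the other strand by 194 bases.

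IER2 and IER5 belong to a family of small nuclear proteins that are induced by serum and growth factors. IER5 mRNA was 70.8 and 82.2 CPM in WT and 52.3 and 54.2 CPM in XRN1-null cells, a log2 fold change of −0.52 (SE 0.0836, edgeR quasi-likelihood FDR = 0.00106). The call was lost without XRN1-null RNA-Seq replicate 1 (log2 fold change −0.50, edgeR FDR = 0.00774). IER5 footprints were 36.98 and 32.6 CPM in WT and 27.8 and 26.2 CPM in XRN1-null cells, a log2 fold change of −0.34 (−0.69 to 0.01) that did not pass the test. In both assays the WT libraries lay above the XRN1-null libraries. IER2 mRNA was 33.8 and 36.3 CPM in WT and 28.1 and 29.7 CPM in XRN1-null cells, with a log2 fold change of −0.28 (−0.45 to −0.10) that passed an FDR of 0.05 but not 0.005 (edgeR FDR = 0.0141). With thinned RNA-Seq it was −0.11 (edgeR FDR = 0.565), and it also missed 0.05 without XRN1-null RNA-Seq replicate 1 (−0.24, edgeR FDR = 0.142) or replicate 2 (−0.32, edgeR FDR = 0.0581). It passed 0.005 in the likelihood ratio test (edgeR FDR = 0.00265) and without WT RNA-Seq replicate 1 (−0.31, edgeR FDR = 0.00116). IER2 footprints were 13.5 and 18.4 CPM in WT against 12.7 and 9.68 CPM in XRN1-null cells, a log2 fold change of −0.56 (−1.09 to −0.03, edgeR FDR = 0.132), which ranged from −0.77 to −0.25 with a library left out and was smallest without WT Ribo-Seq replicate 2. The IER2 groups did not overlap in either assay, but the Ribo-Seq values rest on 26 to 80 counts per library. A long non-coding gene on the other strand overlaps 629 bases of IER2.

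GADD45A and GADD45B are stress sensors that bind PCNA, CDK1 and the kinase MAP3K4, and GADD45A is a classical target of p53. GADD45A mRNA was 40.2 and 41.6 CPM in the WT libraries and 26.4 and 32.3 CPM in the XRN1-null libraries, a log2 fold change of −0.48 (SE 0.101, edgeR quasi-likelihood FDR = 0.00401). This call was lost with scaling by library totals (log2 fold change −0.42, edgeR FDR = 0.0074), with thinned RNA-Seq (−0.46, edgeR FDR = 0.0193) and without XRN1-null RNA-Seq replicate 1 (log2 fold change −0.34, edgeR FDR = 0.0351). GADD45A footprints showed the largest decrease of the group, from 25.002 and 28.5 CPM in WT to 12.7 and 9.05 CPM in XRN1-null cells. The log2 fold change was −1.30 (SE 0.217, edgeR FDR = 0.00429), at percentile 1.04 of all genes, and ranged from −1.58 to −1.10 with each library left out. Its TE had a log2 change of −0.83 (−1.37 to −0.28), which missed the threshold (edgeR FDR = 0.0675). GADD45B mRNA was 12.5 and 12.9 CPM in WT and 10.9 and 9.50 CPM in XRN1-null cells, with no overlap, and its log2 fold change of −0.32 did not reach the threshold (edgeR FDR = 0.0315). GADD45B footprints, 15.1 and 10.8 CPM in WT and 13.9 and 9.68 CPM in XRN1-null cells, overlapped, with a log2 fold change of −0.04 (−0.62 to 0.55).

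**Figure D3:**
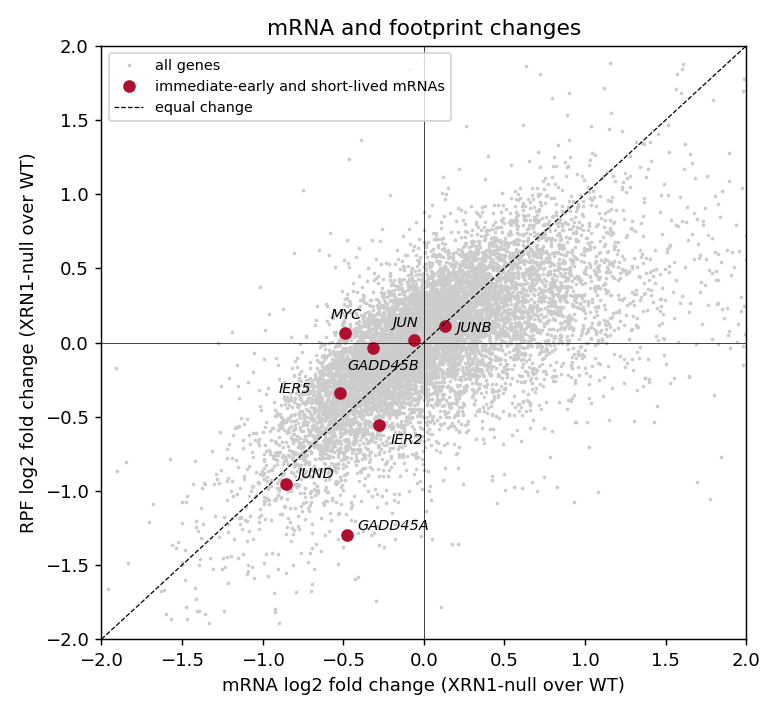
Log2 fold change of RPF (vertical) against that of mRNA (horizontal), XRN1-null over WT, for all genes (grey, those within 2 of 0 on each axis) and the 8 genes of the group (red), with a dashed line of equal change. JUND lies near the line at −0.85 and −0.95, MYC above it at −0.49 and 0.06, and GADD45A below it at −0.48 and −1.30.

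In WT cells the mRNAs spanned a wide range of levels per length, with JUN at 68.8 ± 6.93 (SD, n = 2) CPM per kilobase of width and JUNB at 4.34 ± 0.779 (SD, n = 2). In between came, in descending order, MYC (39.8), IER5 (32.7), GADD45A (29.6), JUND (27.5), IER2 (17.1) and GADD45B (9.23). No neighbours in this order had overlapping replicates, with 2 libraries each. The TE level per length, computed as footprints per coding base over mRNA per base of width, also differed widely among them. In WT cells its log2 value was −0.81 for JUND, at percentile 5.54 of all genes, and 1.65 for JUN, at percentile 78.8, with a median over all genes of 0.83. JUND was similarly placed in XRN1-null cells, with a log2 TE level of −0.96 at percentile 7.16. Between WT and XRN1-null cells, MYC went from a log2 TE level of 0.80 (percentile 48.4) to 1.37 (percentile 68.6), and GADD45A from 0.87 (percentile 51.2) to 0.04 (percentile 24.8). The GADD45A replicates in XRN1-null cells were 0.42 and −0.36, and those of WT cells were 0.79 and 0.93, so they did not overlap but the null libraries lay far apart.

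Exon number moved with the mRNA change across the whole table. The exon classes were set after the values were seen, and the genes of the group were chosen with earlier results known. Genes with a single exon had a median mRNA log2 fold change of −0.44 in XRN1-null cells, and 80 of 154 (51.9%) were called lower and 7 higher. The median was −0.33 for genes with 2 exons as well as for those with 3 or 4, −0.19 with 5 to 8, 0.04 with 9 to 14 and 0.34 with 15 or more exons. In the last class 174 of 2619 genes (6.64%) were lower and 1232 (47.0%) higher. Leaving the group out, genes with 1 to 4 exons had a median of −0.33 and 45.03% of the 1810 genes were called lower and 6.08% higher. The 4 of 8 lower calls and the median of −0.40 in the immediate-early group stand beside these values and not only beside those of all genes. Coding length moved along with exon number. Among genes whose coding sequence was no longer than that of MYC, 1362 nt, the median was −0.36 with 1 to 4 exons and −0.15 with more, and among longer ones it was −0.20 and 0.24. RPF followed in the same order, with a median of −0.34 for single-exon genes and 0.19 for 15 or more exons. JUN and JUNB, with log2 fold changes of −0.06 and 0.13, lay above the median of the single-exon genes in mRNA, and JUND and IER5 below it. GADD45A was at −1.30 in RPF, where genes with 3 or 4 exons had a median of −0.19.

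Of 57 other immediate-early genes listed, 33 were in the table. The mRNA of 8 (24.2%) was called lower, close to the 23.2% of all genes, and that of 5 (15.2%) higher, against 22.9% of all genes, with a median log2 fold change of −0.04. The largest fall was that of NFKBIA, the NF-κB inhibitor, from 19.4 and 20.6 CPM to 12.2 and 14.03 CPM (log2 fold change −0.61, edgeR FDR = 0.00126). The largest rise was that of CTGF, a matricellular protein gene induced by YAP and SRF, from 4.52 and 3.59 CPM to 6.34 and 6.73 CPM (log2 fold change 0.68, edgeR FDR = 0.00493). None of the 33 genes was called in RPF or TE in edgeR's quasi-likelihood test. Among the listed partners of AP-1 and the CREB/ATF family, 2 of 15 mRNAs (13.3%) were lower and none was higher, beside 23.2% and 22.9% of all genes. ATF1 fell the most among them (38.9 ± 4.72 to 28.0 ± 0.878 CPM, SD, n = 2 each).

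Of 9 genes of the MYC-MAX network in the table, 4 were higher and 3 lower in mRNA, beside 22.9% and 23.2% of all genes, and none passed in RPF. MAX, the obligate partner of MYC, fell from 101 and 91.4 CPM to 56.8 and 59.1 CPM (log2 fold change −0.73, SE 0.0732, edgeR FDR = 0.000115), while its RPF change of −0.25 did not pass (edgeR FDR = 0.299). ZBTB17, which encodes the MYC-binding repressor MIZ-1, rose from 14.5 and 15.6 CPM to 30.2 CPM in both XRN1-null libraries. Of 23 genes often described as MYC targets, 5 (21.7%) were higher and 7 (30.4%) lower in mRNA, beside the same shares of all genes, and none was called in RPF. The extremes were EIF4E, the cap-binding initiation factor (log2 fold change −0.62), and CAD, an enzyme of pyrimidine synthesis, whose mRNA went up from 158 ± 6.94 to 385 ± 2.77 CPM (SD, n = 2 each) while its TE fell by 1.204 on the log2 scale (edgeR FDR = 0.00298).

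Of the kinases and cofactors that act upstream of immediate-early transcription, 6 of 25 mRNAs (24%) were higher and 5 (20%) lower, close to the 22.9% and 23.2% of all genes. The extremes were MAPK3, encoding the kinase ERK1 (97.0 ± 3.89 to 60.8 ± 1.61 CPM, SD, n = 2 each), and MAP3K1 (18.8 ± 1.36 to 29.8 ± 2.09 CPM, SD, n = 2 each). Of the p53 targets and GADD45 partners, 8 of 19 mRNAs (42.1%) were lower and 1 (5.26%) was higher, with a median log2 fold change of −0.24. Among all genes 23.2% were lower and 22.9% higher, with a median of −0.01, and among those with 1 to 4 exons outside the immediate-early group 45.03% were lower and 6.08% higher. CDKN1A, encoding the CDK inhibitor p21, fell in both assays, from 78.8 and 82.0 to 36.7 and 31.3 CPM in mRNA (log2 fold change −1.24, edgeR FDR = 2.42e-05) and from 42.2 and 37.7 to 14.2 and 14.7 CPM in RPF (log2 fold change −1.45, edgeR FDR = 0.00121). It was the only gene of this list called in RPF, and its TE did not change past the threshold (log2 change −0.21, edgeR FDR = 0.581). DDB2, a DNA damage recognition gene, had the largest rise in mRNA, from 14.7 and 15.9 to 26.6 and 26.5 CPM.

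**Figure D4:**
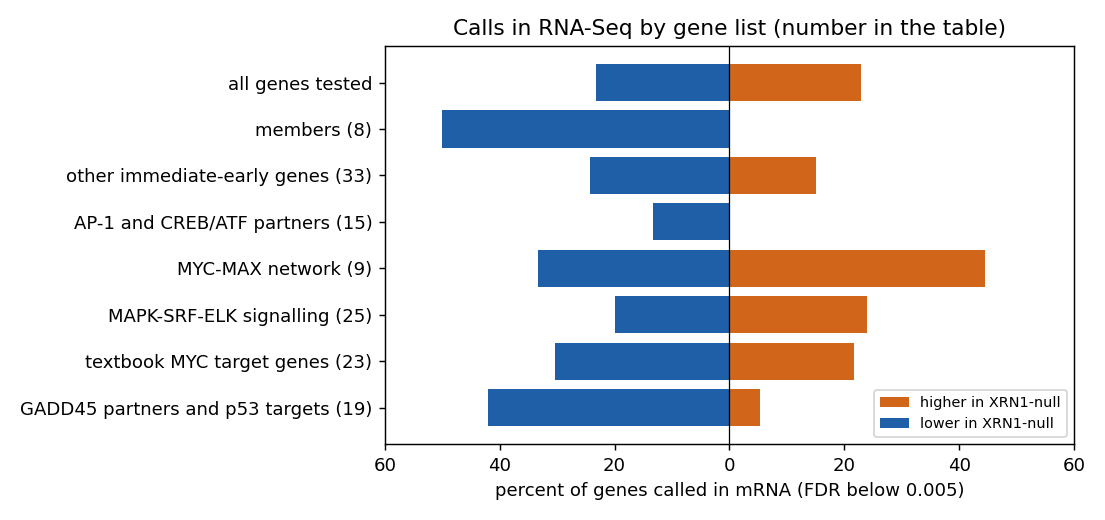
Percent of genes called in mRNA at an FDR of 0.005, higher (orange, right) or lower (blue, left) in XRN1-null cells, for all genes tested (22.9% and 23.2%) and each gene list, with the number in the table in brackets. Of the 8 genes of the group, labelled members, 50% were lower and none higher, and of the p53 and GADD45 list 42.1% were lower and 5.26% higher.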

How the data were processed

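The labels assigned 8 libraries to genotype, assay and replicate number. Per the study's methods, Bowtie2 was used to take out reads of ribosomal RNA and TopHat2 to align the remainder to hg19, footprints of 2 read lengths were kept, and QuasR gave the gene counts. The authors deposited these counts, unnormalised, for genes that passed an FPKM cutoff. Strand-specific counting is not described. The deposited log2 fold changes, p-values and TE ratios of the authors were not used, and 0 columns of other samples were found. Starting from the counts, edgeR 4.0.16 (R 4.3.3) was fitted to all 10105 genes with TMM factors within each assay, genotype as the only term and, for TE, the interaction of assay and genotype. Standard errors are the log2 fold change over the square root of F, and intervals are 95%. P-values measure the spread between 2 replicates per group. Alternatives were DESeq2 1.42.0, edgeR's likelihood ratio test, other scalings, a minimum of 10 counts, an FDR of 0.05, blocks, thinned RNA-Seq and leaving out each library. The thinning was a single random draw of the counts, so all thinned values carry the sampling error of that draw. The test functions were tested on simulated counts with 200 changed genes.

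Genes were matched to GENCODE 44 on GRCh37 by symbol (9552) or by a RefSeq synonym (484), and 96.7% had a coding reference transcript. The members and gene lists were chosen with earlier results of these data known, and the exon classes after the values were seen. Named genes are the members, XRN1 and the largest called rise and fall of each list. HOOK2 was added for its overlap with JUNB, and NEFL, INA and PAX2 as markers. Counting error limits low genes. Biological coefficients of variation, the variation between replicates beyond counting error taken over all genes, were 6.02% in RNA-Seq and 9.84% in Ribo-Seq. PCR duplicates cannot be recognised.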

Additional observations from a re-analysis of the deposited data

How the results depend on the processing

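The number of members called in mRNA (4) became 2 after thinning RNA-Seq counts to Ribo-Seq depth and ranged from 1 (without XRN1-null RNA-Seq replicate 1) to 5 with each library left out. In RPF, 1 member was called, 0 with DESeq2 and with a minimum of 10 counts, and 2 with the likelihood ratio test, an FDR of 0.05 and the replicate block, with 0 to 1 when libraries were left out. Of all genes, 115 were called lower and 64 higher in RPF in the quasi-likelihood test without these changes. DESeq2 gave 120 and 98, and the minimum of 10 counts gave 93 and 47. The likelihood ratio test gave 596 and 469, the FDR of 0.05 gave 847 and 714, and the replicate block 665 and 616. No member was called in TE under any alternative run. The lone library of a group was then assumed to vary like the others.

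Signs turned only for values that did not pass the test in that assay or for TE. With a library left out, mRNA log2 fold changes ranged from −0.14 to 0.043 for JUN and from −0.022 to 0.32 for JUNB, and RPF changes from −0.11 to 0.19 for JUN, −0.043 to 0.50 for JUNB, −0.049 to 0.24 for MYC and −0.35 to 0.17 for GADD45B. TE changes ranged from −0.048 to 0.25 for JUN, −0.22 to 0.37 for JUNB, −0.36 to 0.094 for JUND, −0.52 to 0.030 for IER2 and −0.020 to 0.50 for GADD45B. With RNA-Seq thinned by a single random draw, JUNB was at −0.090 in mRNA and 0.19 in TE. The TE change of JUNB was 0.026 with the replicate block and 0.051 with the culture replicate block. The causes were not tested.

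Replicate numbers do not say which libraries were prepared together. Deviations of the replicate 1 libraries from their group means correlated between genotypes at 0.190 in RNA-Seq and 0.0803 in Ribo-Seq. With 2 libraries per group, replicate 2 necessarily gives the same values. The block left 4 mRNA calls. Read singly, the replicates gave genes with 1 to 4 exons a median mRNA log2 ratio of −0.35 and −0.30, and those with 15 or more exons 0.40 and 0.29, an alternative chosen after seeing the data.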
